A study of Mus musculus with 2 samples.

Results

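The undifferentiated spermatogonia described here were cell barcodes of mouse testis chosen by marker counts, 145 of 26466 barcodes in all. A barcode was a member when it held at least 2 unique molecular identifiers (UMIs, each standing for 1 captured transcript) summed over the 9 markers Gfra1, Zbtb16, Id4, Ret, Etv5, Nanos3, Pou3f1, Pax7 and Bcl6b. These had to make up at least 5 per 10000 of its UMIs, and the barcode had to hold at least 1 UMI of the 5 germ genes Sall4, Dmrt1, Lin28a, Sohlh1 and Crabp1. The counts of these genes therefore chose the members, and their levels are given as a description.

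Undifferentiated spermatogonia lie on the basement membrane of the seminiferous tubule and comprise the stem cells of the male germ line and their early progenitors. Glial cell line-derived neurotrophic factor (GDNF), made by Sertoli and peritubular myoid cells, binds GFRA1 and signals through the tyrosine kinase RET to keep stem cells renewing. Under retinoic acid the progenitors switch on Kit and Stra8, become differentiating spermatogonia and then pass through meiosis as spermatocytes (leptotene, zygotene, pachytene) to become round spermatids.

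The testes came from male C57 BL/6 mice that entered the study at 5 weeks of age. After 1 week of adaptation, 20 mice were split into 10 on a high-fat diet with 60% of its energy as fat and 10 on a normal maintenance diet, for 12 weeks. Testis tissue was dissociated with collagenase IV and DNase I and captured in droplets, which gave 2 libraries, 1 per group. One is titled for the high-fat diet (the high-fat library), while for the other the labels state testicular tissue without a diet (the comparison library). Germ cells are the labelled cell type, although no step that selects them is described, and it is not stated whether a library holds 1 mouse or several. Since there were no replicates, higher and lower compare these 2 libraries and not the diets, no test was possible, and the 95% intervals in brackets cover counting error only.

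There were 12661 barcodes with 201842085 UMIs in the high-fat library and 13805 barcodes with 207667609 UMIs in the comparison library, with medians of 9772 and 13024 UMIs per barcode. Both libraries used 1507 of the same barcode names, 21 of them names of members, and no member had the same profile in both. Levels are given as CPM, the UMIs of a gene summed over members and scaled to a common UMI total. The members' own total was 393373 UMIs in the high-fat library and 368519 UMIs in the comparison library.

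Members were rare in both libraries. They numbered 74 in the high-fat library, a share of 0.584% (0.459 to 0.733), and 71 in the comparison library, 0.514% (0.402 to 0.648). The difference of 0.0702 percentage points (-0.109 to 0.253) was not detectable at this depth. Without the germ gene condition the members numbered 201 and 158, and the difference was 0.443 points.

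Members were shallow barcodes. Their median depth was 4400 UMIs and 2419 genes in the high-fat library and 3957 UMIs and 2241 genes in the comparison library, and single members held between 1350 and 21082 UMIs and between 1123 and 22292 UMIs. Transcripts of the mitochondrial genome made up 0.324% of their UMIs in the high-fat library and 0.222% in the comparison library, against 0.0176% and 0.0157% over all barcodes. This was not particular to members. Differentiating spermatogonia chosen by Kit and Stra8, described below, held 0.323% and 0.477%, and Sertoli barcodes 0.209% and 0.347%. After every member was thinned to 1000 UMIs, the median was 741 genes in the high-fat library and 733 in the comparison library. Round spermatids at the same depth showed 758 and 743 genes, so members held no more genes per UMI than these later cells.

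Many members passed the rule narrowly. In the high-fat library 21 members held exactly 2 marker UMIs, 20 held exactly 1 germ gene UMI, and 12 showed a single marker gene. In the comparison library these numbers were 22, 19 and 15. Members held a median of 8.13 marker UMIs per 10000 in the high-fat library (highest 29.5) and 8.84 in the comparison library (highest 26.7). Just inside the threshold, at 5 to 6 per 10000, there were 10 members in the high-fat library and 14 in the comparison library, whose summed progenitor genes stood at 921 and 488 CPM. Just outside it, at 4 to 5 per 10000, 19 and 18 barcodes met both other conditions, with progenitor genes at 382 and 539 CPM. Progenitor genes were thus lower outside the edge than inside it in the high-fat library and not in the comparison library.

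**Figure D1:**
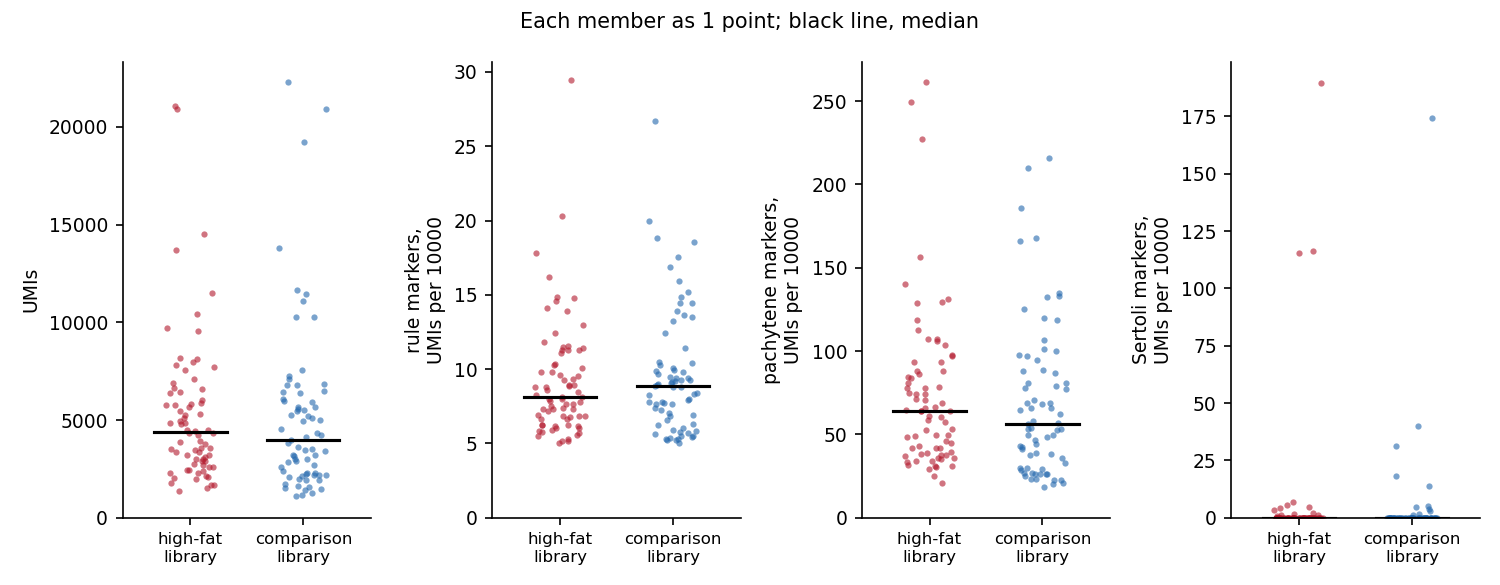
Each point is 1 member; the panels show UMIs, rule markers, pachytene markers and Sertoli markers (the last 3 as UMIs per 10000), with the median as a black line, for the high-fat library (left, 74 members) and the comparison library (right, 71 members). Depth and marker share overlapped widely between the libraries, pachytene markers were found in every member, and Sertoli markers were at 0 in 61 and 60 members but above 100 per 10000 in 3 members of the high-fat library and 1 of the comparison library.

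The rule's own markers stood above later germ cells to unequal degrees. At a depth of 1000 UMIs, Ret was seen in 9.46% of members of the high-fat library and 9.86% of the comparison library, against 0.0279% and 0.0864% of round spermatids, a cell type that should lack it. Zbtb16 was seen in 28.4% and 11.3% of members, against 0.0558% and 0.0648% of round spermatids. Nanos3 was seen in 10.8% and 14.1% of members, against 0.614% and 0.497%. Pou3f1, a POU-domain factor, stood at 175 and 81.4 CPM in members, against 0.199 and 0.0390 CPM in round spermatids.

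For Gfra1 and Id4 the gap was smaller. At 1000 UMIs Gfra1 was seen in 5.41% of members of the high-fat library (1.49 to 13.3) and 11.3% of the comparison library (4.99 to 21.0), against 2.65% and 1.99% of round spermatids. Unthinned, 16.2% and 25.4% of members held a Gfra1 UMI, against 27.9% and 24.8% of round spermatids, which were deeper (median 17837 and 14404 UMIs). Id4, an inhibitor of DNA binding by basic helix-loop-helix factors, was seen in 10.8% and 11.3% of thinned members, against 1.73% and 2.03% of round spermatids. In CPM, Gfra1 stood at 43.2 and 76.0 in members against 19.5 and 21.1 in round spermatids, and Id4 at 99.1 and 138 against 21.1 and 22.3. A deep member of the high-fat library held 12 Id4 UMIs, and a pair in the comparison library held 11 and 8. Their pachytene markers stood at 227, 210 and 186 per 10000, against medians of 64.3 and 56.5 over members of each library. Their part in the Id4 level was not tested. Ret stood at 50.8 and 78.7 CPM in members against 0.146 and 0.195 in round spermatids. Since the UMIs of these 6 genes chose the members, their excess over round spermatids is a description and no check of the label.

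Between the libraries, the counts of the GDNF receptor pair were lower in the high-fat library, with intervals of both ratios that included 1. Gfra1 had 17 UMIs in 12 members there and 28 UMIs in 18 members of the comparison library, a ratio of 0.569 (0.292 to 1.08). Ret had 20 UMIs in 15 members and 29 UMIs in 20 members, a ratio of 0.646 (0.346 to 1.18). Gfra1 or Ret was found in 23 members of the high-fat library (31.1%, 20.8 to 42.9) and in 36 of the comparison library (50.7%, 38.6 to 62.8). Both together were found in 4 and 2 members. The other GDNF family receptors Gfra2, Gfra3 and Gfra4 had 2, 11 and 9 UMIs in the high-fat library and 5, 5 and 6 in the comparison library.

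Of the transcription factors that respond to GDNF in mouse spermatogonia, Etv5 and Pou3f1 stood higher in the high-fat library, while Etv4 and Egr4, given below, had lower levels there with intervals that included 1. Etv5 had 58.5 CPM (37.1 to 87.7) there and 19.0 CPM (7.64 to 39.1) in the comparison library, a log2 ratio of 1.62. Pou3f1 had 175 CPM (136 to 222) and 81.4 CPM (54.9 to 116), a log2 ratio of 1.11. Bcl6b had 30.5 CPM and 10.9 CPM, from 12 and 4 UMIs, with a ratio of 2.81 (0.852 to 12.0) that included 1. Etv5 or Bcl6b was found in 21 members of the high-fat library (28.4%) and in 9 of the comparison library (12.7%). Pax7, a paired-box factor found in a rare subset of mouse spermatogonia, had 66.1 and 24.4 CPM, from 9 and 3 members.

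Several measured facts stand beside these differences, and their part in them was not tested. Over all other barcodes the log2 ratios of Etv5, Pou3f1 and Pax7 were also above 0, at 0.83, 0.76 and 1.08. Of the 23 Etv5 UMIs in the high-fat library, 9 came from 3 of the 8 members rich in somatic cell markers, and Etv5 stood at 36.2 and 32.7 CPM in Sertoli barcodes. Without members rich in somatic markers Etv5 had 39.8 and 14.7 CPM, a ratio of 2.71 (0.923 to 9.62), and Pou3f1 kept a ratio of 2.25 (1.42 to 3.64). With members thinned to 1000 UMIs, the Etv5 log2 ratio was -0.060, and among members with at least 10 marker UMIs per 10000 that of Pax7 was -0.77.

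The remaining rule markers differed little. Zbtb16, a zinc finger repressor needed for self-renewal, had 183 CPM in the high-fat library and 247 CPM in the comparison library (ratio 0.741, 0.536 to 1.02). Its share of thinned members ran the other way, so no order is read from it. Id4 had a ratio of 0.716 (0.460 to 1.11). Nanos3, an RNA-binding protein of early germ cells, had 130 and 157 CPM (ratio 0.824, 0.554 to 1.22). Of the 6904 genes with at least 20 summed UMIs over members, 596 (8.63%) were at least 2-fold higher in the high-fat library and 386 (5.59%) at least 2-fold lower. Of the 8 rule markers among them, 3 were at least 2-fold higher and none was 2-fold lower, while the median log2 ratio of the 8 was -0.36 against 0.05 for all genes tested. The markers summed to 836 and 833 CPM, which the rule helps to fix.

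Of the 5 germ genes, Lin28a differed most. Lin28a, an RNA-binding protein that blocks maturation of let-7 microRNAs, had 83 UMIs in 34 members of the high-fat library and 211 UMIs in 47 members of the comparison library. Its levels were 211 and 573 CPM, a ratio of 0.369 (0.282 to 0.477). One barcode held 27.7% of these UMIs in the high-fat library and 36.0% in the comparison library, and over all other barcodes the log2 ratio was -0.57 against -1.44 in members. Among members with at least 10 marker UMIs per 10000 it was -0.35, and without the barcode with most of its UMIs in each library it was -1.26. Crabp1, which binds retinoic acid, had 249 and 176 CPM (ratio 1.41, 1.02 to 1.96). Sohlh1, a basic helix-loop-helix factor of early spermatogonia, had 295 and 277 CPM. Dmrt1, which holds spermatogonia in mitosis, had 183 and 228 CPM, and the zinc finger factor Sall4 had 104 and 136 CPM.

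**Figure D2:**
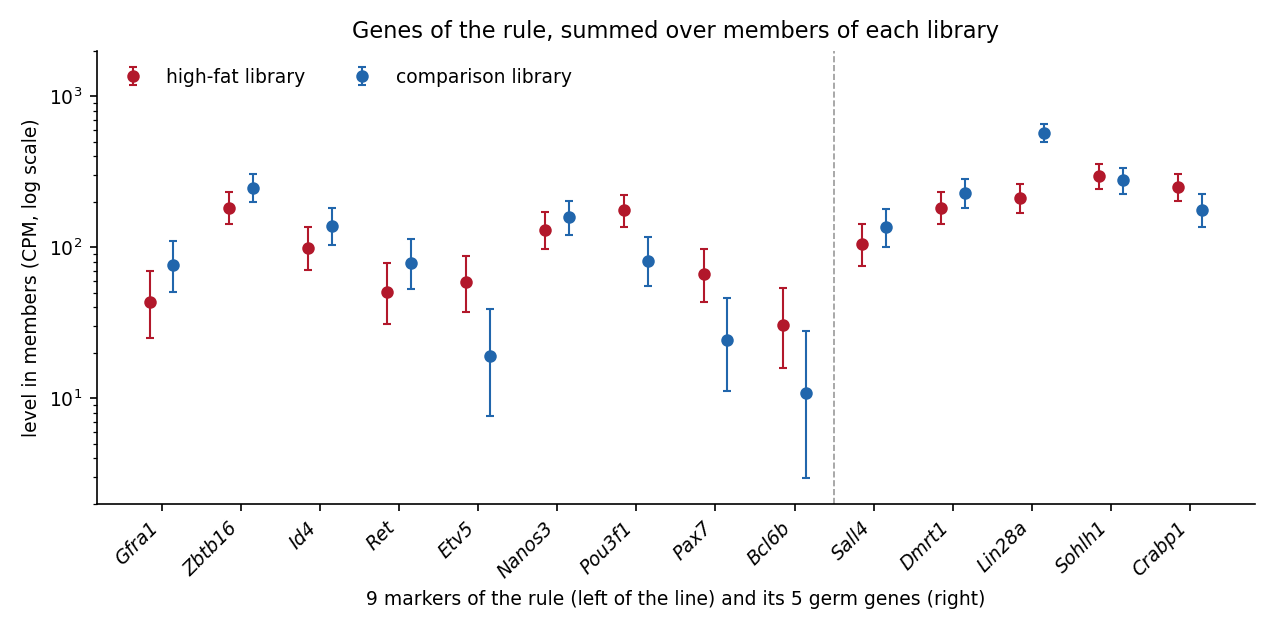
Levels of the 9 markers (left of the dashed line) and 5 germ genes (right) summed over members, in CPM on a log axis, with 95% Poisson intervals, for the high-fat library (red, left of each pair) and the comparison library (blue). Etv5, Pou3f1, Pax7 and Bcl6b had higher point values in the high-fat library, with overlapping intervals for all but Pou3f1, Lin28a lay lower at 211 against 573 CPM, and the intervals of Gfra1, Zbtb16, Id4, Ret and Nanos3 overlapped as well.

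Genes outside the rule were read in both libraries at levels far above the other barcodes. Of all genes tested, 2780 (40.3%) were at least 2-fold higher in members than in the other barcodes of both libraries and 1043 (15.1%) were at least 2-fold lower, a contrast that the rule itself used. Uchl1, a deubiquitinase long used to mark spermatogonia, stood at 1159 CPM in members of the high-fat library and 917 CPM in those of the comparison library, 47.6-fold and 52.8-fold above the other barcodes. It was found in 61 of 74 and 55 of 71 members. Sdc4, a heparan sulphate proteoglycan of the cell surface, stood at 501 and 358 CPM. Egr4, a zinc finger factor required for male fertility in mice, stood at 142 and 179 CPM and was found in 28 and 26 members. At 1000 UMIs, Uchl1 was seen in 59.5% and 45.1% of members, against 1.12% and 0.734% of round spermatids and 24.9% and 26.0% of Sertoli barcodes.

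The promoters of Egr4, Uchl1, Sdc4 and the rule gene Sohlh1 are printed because these 4 genes were carried unevenly, and in the same direction in both libraries, by the 2 kinds of member described further on. Each is the 250 bases before the annotated start, 5′ to 3′ on the gene's strand, from RefSeq on GRCm38.p6, where all 4 symbols matched. Capitals mark an E-box (CANNTG, the letters basic helix-loop-helix factors bind) or a GC box (GGGCGG), searched on both strands, and no 2 matches overlapped.
Egr4, chr6:85513590-85513839, minus strand: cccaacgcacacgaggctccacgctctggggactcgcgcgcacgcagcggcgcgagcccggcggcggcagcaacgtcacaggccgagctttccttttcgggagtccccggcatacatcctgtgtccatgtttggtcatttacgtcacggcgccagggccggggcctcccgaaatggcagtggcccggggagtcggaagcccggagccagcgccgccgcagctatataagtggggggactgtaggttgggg
Uchl1, chr5:66675871-66676120, plus strand: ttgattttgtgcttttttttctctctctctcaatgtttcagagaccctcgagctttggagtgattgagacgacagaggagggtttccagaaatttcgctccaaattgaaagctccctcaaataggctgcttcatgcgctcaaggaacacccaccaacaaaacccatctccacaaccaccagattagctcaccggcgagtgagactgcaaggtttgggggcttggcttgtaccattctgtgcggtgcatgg
Sdc4, chr2:164443189-164443438, minus strand: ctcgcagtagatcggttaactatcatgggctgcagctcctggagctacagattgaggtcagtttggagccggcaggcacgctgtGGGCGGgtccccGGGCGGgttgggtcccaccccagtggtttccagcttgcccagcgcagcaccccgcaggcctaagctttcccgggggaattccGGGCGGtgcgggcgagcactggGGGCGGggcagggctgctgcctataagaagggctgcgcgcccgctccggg
Sohlh1, chr2:25847249-25847498, minus strand: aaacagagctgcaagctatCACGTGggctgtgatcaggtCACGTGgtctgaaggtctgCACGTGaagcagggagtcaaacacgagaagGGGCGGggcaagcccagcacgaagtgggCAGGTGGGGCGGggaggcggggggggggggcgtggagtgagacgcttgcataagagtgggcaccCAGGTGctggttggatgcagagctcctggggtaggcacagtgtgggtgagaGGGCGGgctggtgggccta
The Sohlh1 promoter held 5 E-boxes and 3 GC boxes and the Sdc4 promoter 4 GC boxes, while the Egr4 and Uchl1 windows held neither. Of 32851 promoters of this length, 66.2% held at least 1 E-box and 32.7% at least 1 GC box, so the 4 windows share no motif of the pair.

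The 30 genes outside the rule with the highest levels relative to other barcodes, by the lower of the 2 libraries, were led by Trim71, Sdc4, Hnf4aos, Ccnd2 and Psme2. Trim71, an RNA-binding ubiquitin ligase of early germ cells, stood at 173 and 231 CPM in members against 0.332 and 0.143 CPM in round spermatids. Tex19.1, which restrains transposons in the germ line, stood at 193 and 190 CPM against 0.664 and 0.312 CPM. Psme1 and Psme2, which form an activator of the proteasome, stood at 214 and 364 CPM and at 305 and 312 CPM, and Psmb10, a subunit of the immunoproteasome, at 262 and 228 CPM. Bc1, a small non-coding RNA, stood at 1551 and 1772 CPM, the nucleolar protein gene Ncl at 1360 and 1332 CPM, and the mitochondrial chaperone gene Hspe1 at 864 and 999 CPM. Igf1r, the receptor for insulin-like growth factor 1, stood at 132 and 171 CPM. The Hnf4aos level rests on single barcodes, which held 77.6% and 73.1% of its UMIs, as does that of Slc25a13 at 60.0% and 38.9%.

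Most of these genes were shared with differentiating spermatogonia. Barcodes with at least 3 UMIs and 5 per 10000 of Kit, Stra8, Sohlh2 and Rhox13 and 1 UMI of a germ gene, and outside the members, numbered 78 in the high-fat library and 54 in the comparison library (a rule set after a wider one had taken in barcodes rich in pachytene markers). In them Ncl stood at 2115 and 1976 CPM, Uchl1 at 1338 and 1268 CPM and Trim71 at 113 and 126 CPM. Egr4 stood at 54.8 and 22.5 CPM there and Sdc4 at 157 and 78.7 CPM, below the members in both libraries. Of the rule genes, Ret stood at 3.13 and 5.62 CPM in these barcodes and Zbtb16 at 64.2 and 61.8 CPM. Stra8, by which they were chosen, stood at 813 and 742 CPM there, against 117 and 59.7 CPM in members.

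**Figure D3:**
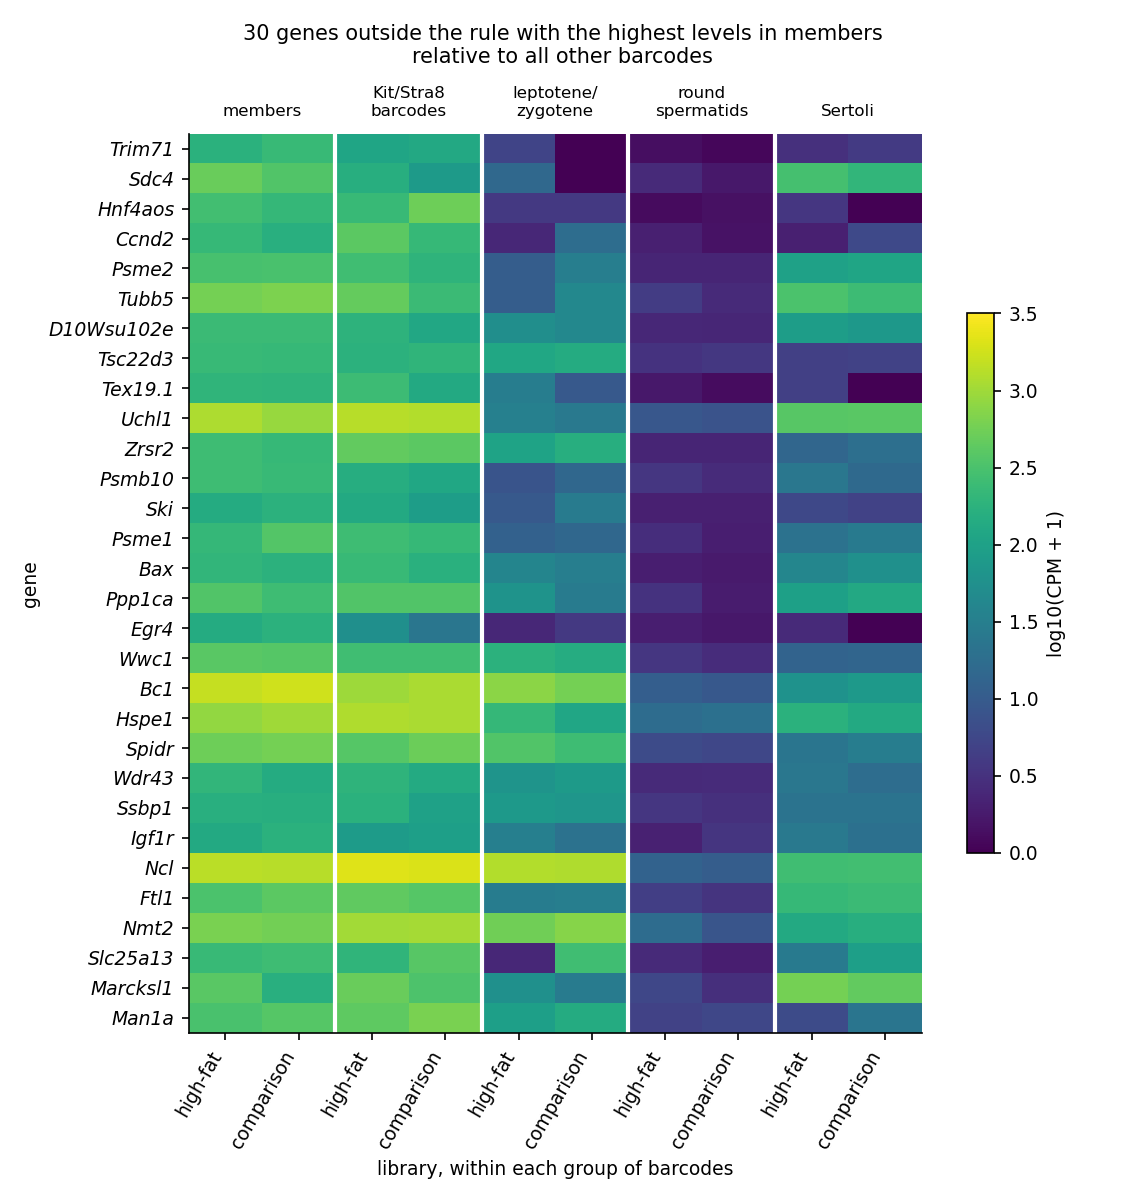
Levels of the 30 genes as log10(CPM + 1), in the high-fat library (left column of each pair) and the comparison library (right column), for members and 4 other groups of barcodes chosen by their own markers. Members and Kit/Stra8 barcodes shared most of the genes, round spermatids held nearly none of them, and the highest of them in Sertoli barcodes were Marcksl1, Uchl1, Tubb5, Sdc4, Ncl and Ftl1.

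Genes at the top of the stem cell hierarchy in mice were almost unread. Of 23 genes of the stem cell and GDNF response outside the rule, 20 had at least 1 UMI in members, and only Egr4, Sdc4 and Etv4 reached 20 summed UMIs. Etv4, a relative of Etv5, had 22.9 and 43.4 CPM. Foxc2 had 1 UMI in the high-fat library and 8 in the comparison library, from 1 and 4 members. Lhx1, a GDNF-responsive factor, had 6 and 0 UMIs, and 1 barcode held 83.3% of them. Nanos2 had 1 and 0 UMIs, T had 1 and 0, and Eomes had 0 and 2. Egr3, Cxcr4 and Csf1r had none in either library, which allows up to 7.63 CPM in the high-fat library and 8.14 CPM in the comparison library, at a floor of 3 counts in each. The Id relatives of Id4 were as sparse, with 2 and 4 UMIs of Id1, 3 and 1 of Id2 and 3 and 7 of Id3.

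Progenitor genes were carried by members of both libraries, but as a sum not by members alone. The list stood at 722 and 592 CPM in members, 628 and 475 CPM in Kit/Stra8 barcodes and 586 and 666 CPM in Sertoli barcodes, where Cited1 gave 516 and 591 CPM. Sox3, a factor of progenitor spermatogonia, stood at 91.5 CPM in the high-fat library and 103 CPM in the comparison library, in 21 and 20 members. Foxo1, needed for stem cell upkeep in mice, stood at 130 CPM in both, in 20 and 25 members. The RNA-binding protein gene Dnd1 stood at 114 and 109 CPM, and the retinoic acid receptor gene Rarg at 45.8 and 54.3 CPM. Neurog3 had only 7 and 9 UMIs. Upp1, which cleaves uridine, had 142 and 54.3 CPM in 20 and 9 members, a ratio of 2.62 (1.55 to 4.62), among the 2 highest of the list. Over all other barcodes its log2 ratio was 2.56, above the 1.39 in members. Cited1, a transcriptional co-activator, had 71.2 and 27.1 CPM (ratio 2.62, 1.24 to 6.05). Upp1 and Cited1 were the 2 of 8 progenitor genes tested that were at least 2-fold higher in the high-fat library, against 8.63% of all genes, and none was 2-fold lower, against 5.59%. The list's median log2 ratio was 0.03, and its sum in members had a ratio of 1.22 (1.02 to 1.46) that became 1.18 (0.978 to 1.42) without members rich in somatic markers.

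Genes of differentiation stood somewhat higher in the high-fat library. The list's median log2 ratio was 0.50 in members and 0.44 over all other barcodes, where its sum was nearly equal, at 1845 and 1755 CPM. Of 9 tested, 8 lay above the median log2 ratio of all genes, 3 were at least 2-fold higher, against 8.63% of all genes, and none was 2-fold lower. Ccnd1, a cyclin of the entry into the cell cycle, had 94.1 and 29.8 CPM (ratio 3.15, 1.57 to 6.85), against a log2 ratio of 0.23 over all other barcodes. Rhox13, a homeobox gene, had 58.5 and 24.4 CPM, and Meioc, an RNA regulator of meiosis, had 38.1 and 13.6 CPM. Stra8, the retinoic acid target that opens meiosis, had 46 UMIs in 18 members and 22 UMIs in 12 members, a ratio of 1.96 (1.15 to 3.42). Kit, the stem cell factor receptor, had 9 and 4 UMIs. Dmrtb1, which gates the entry into meiosis, had 425 and 301 CPM, but stood at 1695 and 1629 CPM in all other barcodes. The list summed to 2402 and 1799 CPM, a ratio of 1.34 (1.21 to 1.48), and its median log2 ratio became -0.46 among members with at least 10 marker UMIs per 10000, where 4 of its genes could be measured.

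Receptors for fibroblast growth factors, another signal to stem cells, summed to 341 and 193 CPM in members and to 345 and 441 CPM in Kit/Stra8 barcodes. In members of the high-fat library most of this was Fgfr2. It had 224 and 86.8 CPM, in 41 and 25 members (ratio 2.58, 1.70 to 3.99), and its log2 ratio of 1.37 compares with 0.50 over all other barcodes. Round spermatids held 71.4 and 42.6 CPM of it, so it does not mark members. Fgfr1 stood at 38.1 and 38.0 CPM.

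Members were split into 2 kinds by which marker they carried. Those with a UMI of Gfra1 or Id4 and none of Nanos3 numbered 23 in the high-fat library and 23 in the comparison library, and those with Nanos3 and neither Gfra1 nor Id4 numbered 21 and 19. Both were found in 8 and 15 members, and neither in 22 and 14. Gfra1 and Id4 themselves were seen together in only 1 and 4 members. The first kind was shallower, with medians of 3571 against 5319 UMIs in the high-fat library and 3394 against 5688 UMIs in the comparison library.

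Members with Gfra1 or Id4 carried less Uchl1, Sdc4, Egr4 and Sox3 than members with Nanos3, in both libraries. Other spermatogonial genes did not follow: the ratios of Dmrtb1 were 1.38 and 1.22, those of Cited1 1.80 and 1.05 and those of Ccnd2 1.11 and 0.972, and the intervals of these 3, of Crabp1 (0.813 and 0.733) and of Sall4 (0.573 and 0.351) included 1. Uchl1 stood at 738 against 1617 CPM in the high-fat library, a ratio of 0.456 (0.354 to 0.583), and at 331 against 1405 CPM in the comparison library, 0.236 (0.159 to 0.340). Sdc4 had ratios of 0.502 (0.347 to 0.716) and 0.223 (0.105 to 0.432). Egr4 had ratios of 0.296 (0.117 to 0.657) and 0.275 (0.0915 to 0.694). Sox3 stood at 24.1 against 154 CPM and at 9.19 against 96.0 CPM, from 3 and 1 UMIs in members with Gfra1 or Id4. The rule genes Sohlh1, Dmrt1 and Zbtb16 helped to choose the members, so their levels in the 2 kinds are a description. Sohlh1, whose promoter is printed above, stood at 192 against 364 CPM and at 55.2 against 367 CPM, and its ratio in the high-fat library was 0.639 (0.377 to 1.06) without members rich in somatic markers. Dmrt1 had ratios of 0.505 and 0.372, and the first was 0.497 (0.221 to 1.05) without the barcode with most of its UMIs in each kind.

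Some groups of genes were lower as well. Progenitor genes summed to 481 against 1043 CPM in the high-fat library and to 257 against 681 CPM in the comparison library. The sum of stem cell and GDNF genes outside the rule was lower too, with ratios of 0.683 (0.520 to 0.892) and 0.293 (0.180 to 0.460). It includes Sdc4 and Egr4, given above. Sdc4 held 46 of 90 against 105 of 151 UMIs in the high-fat library, and 11 of 25 against 52 of 90 in the comparison library. Egr4 held 8 against 31 and 6 against 23 UMIs. The sum was not computed without these 2 genes, so no order is read for the rest of the list. Differentiation genes had ratios of 0.670 and 0.569 and antioxidant genes 0.839 and 0.628. Other lists went the other way in at least 1 library. The piRNA genes had ratios of 1.09 (0.881 to 1.36) and 1.62 (1.28 to 2.05). Immediate early genes had 1.54 and 2.93, but 1 barcode held 83 of the 117 UMIs of the first kind in the comparison library. Without the barcode with most of their UMIs in each kind, the ratios were 1.44 (1.02 to 2.03) and 0.869 (0.524 to 1.44). Without members rich in somatic markers they were 1.33 (0.949 to 1.86) and 0.797 (0.467 to 1.35). Ribosomal protein genes summed to 23067 against 38419 CPM and to 20473 against 48797 CPM. Heat shock genes had ratios of 0.697 and 0.576. Foxo1 and Zbtb16 lay lower in both libraries, with intervals beyond 1 in only 1 of them each: the Foxo1 ratio was 0.174 (0.0529 to 0.447) in the high-fat library and the Zbtb16 ratio 0.313 (0.144 to 0.627) in the comparison library. Lin28a stood at 136 against 119 CPM in the high-fat library and at 855 against 297 CPM in the comparison library, where 1 barcode with Id4 held 76 of the 93 UMIs. Without the barcode with most Lin28a UMIs in each kind, the levels were 103 against 115 CPM and 162 against 293 CPM, so its order rests on that barcode.

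Meiotic markers showed the opposite order, which rests in large part on 1 or 2 barcodes. Pachytene markers stood at 9164 against 4613 CPM in the high-fat library, a ratio of 1.99 (1.80 to 2.19), and at 11813 against 3369 CPM in the comparison library, 3.51 (3.13 to 3.94). Leptotene and zygotene markers had ratios of 1.78 (1.29 to 2.47) and 3.29 (2.36 to 4.66). In the high-fat library 1 deep member with Id4 (21082 UMIs) held 479 of the 1143 pachytene UMIs, and in the comparison library a pair (20918 and 13824 UMIs) held 439 and 257 of 1285. Without the 2 barcodes with most UMIs of the list in each kind, the pachytene ratios were 1.30 (1.15 to 1.46) and 2.17 (1.89 to 2.50). Without the 2 barcodes with most leptotene and zygotene UMIs, those ratios were 0.797 (0.475 to 1.32) and 1.12 (0.664 to 1.91), so that order did not hold in either library. Spermatid markers had ratios of 1.17 and 2.94, and 1.04 and 2.04 without the 2 barcodes with most spermatid marker UMIs. The Uchl1 ratios were 0.419 and 0.134 without the 2 barcodes with most Uchl1 UMIs in each kind. The progenitor ratios were 0.446 and 0.283 without the 2 with most progenitor UMIs. Neither was computed without the barcodes with most pachytene UMIs. All other barcodes held pachytene markers at 20956 and 23103 CPM, and the Kit/Stra8 barcodes at 3783 and 4483 CPM. Gfra1 and Id4 were also read in later cells, as given above, and the part of such cells in the difference was not tested. Of the members with Gfra1 or Id4, 3 and 5 were rich in somatic markers, against 0 and 3 of those with Nanos3. Sertoli markers had ratios of 75.6 (32.1 to 234) and 3.16 (1.69 to 6.26), and 0.831 and 1.09 without these members; the part of these and of the spermatid markers in the difference was not tested. Without the members rich in somatic markers the Uchl1 ratios were 0.480 and 0.248, the progenitor ratios 0.428 and 0.359 and the pachytene ratios 2.23 and 4.07.

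**Figure D4:**
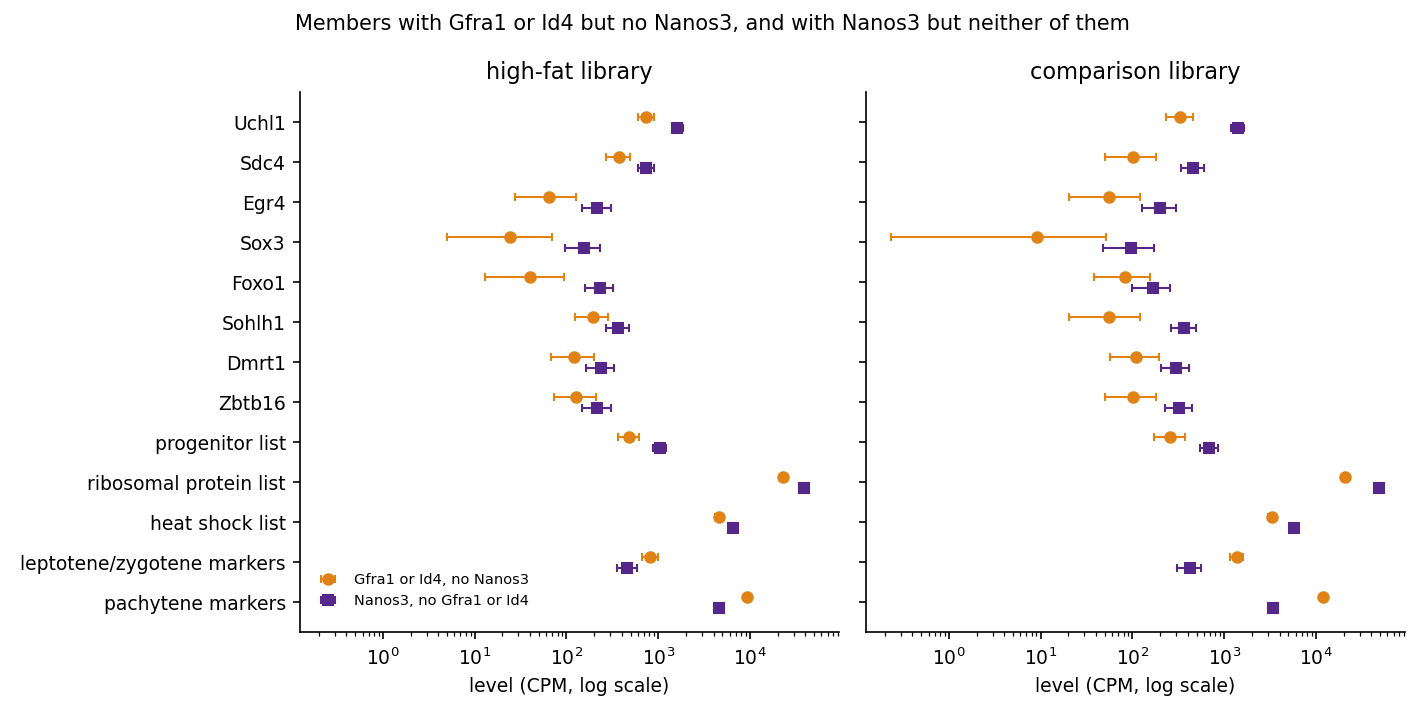
Levels in CPM (log axis) with 95% Poisson intervals of 8 genes and 5 gene lists in members with Gfra1 or Id4 and no Nanos3 (orange circles) and in members with Nanos3 and neither of them (purple squares), in the high-fat library (left) and the comparison library (right). The genes and lists from Uchl1 down to heat shock lay to the left for the first kind in both libraries, and both lists of meiotic markers lay to the right, an order that for leptotene and zygotene markers did not hold without the 2 barcodes with most of their UMIs.

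Cell cycle genes were read in members of both libraries, and their sums differed less than some single genes. Top2a, which untangles replicated chromosomes, had 183 and 97.7 CPM in 34 and 27 members (ratio 1.87, 1.24 to 2.88). Ccnb1, a cyclin of mitosis, had 122 and 59.7 CPM. Of 19 division genes tested, 2 were at least 2-fold higher in the high-fat library (Ccnb1 and Ccna2), against 8.63% of all genes, and none was 2-fold lower, against 5.59%, and the sum was 1543 and 1327 CPM (ratio 1.16, 1.03 to 1.31). Replication genes summed to 1327 and 1303 CPM, with 1 of 16 higher (Pcna) and 2 lower (Tyms and Cdc45), read against the same shares of all genes. E2f1, a driver of replication genes, had 55.9 and 16.3 CPM in 19 and 5 members (ratio 3.44, 1.35 to 10.4). Ccnd2, the cyclin that spermatogonia use as they differentiate, had 219 and 163 CPM. These are summed levels and give no share of cycling cells.

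Ribosomal protein genes were high in members and lower in the high-fat library. They summed to 29374 CPM there and 35925 CPM in the comparison library, a ratio of 0.818 (0.797 to 0.838), while all other barcodes held 9100 and 7510 CPM. The high level was shared with Kit/Stra8 barcodes, which held 31279 and 27971 CPM, with the higher value in the high-fat library. Rplp1 had 3048 and 3658 CPM and Rpl8 1871 and 2676 CPM. Rpl4 was the 1 of 24 genes at least 2-fold lower, at 1312 and 2749 CPM, against 5.59% of all genes. The median log2 ratio of the 24 genes was -0.41, and 20 of them lay below the median of all genes. Rpl13 and Rpl14 went the other way, with 1101 against 204 CPM and 1396 against 168 CPM, and did so over all other barcodes as well, with log2 ratios of 3.29 and 3.89. They were the 2 genes of the list at least 2-fold higher, against 8.63% of all genes. Without members rich in somatic markers the ratio of the sum was 0.829.

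Genes of metabolism and nutrient signalling differed little as groups. Oxidative phosphorylation genes summed to 7738 and 8342 CPM (ratio 0.928, 0.882 to 0.976). None of 21 was 2-fold apart, against 14.2% of all genes in either direction. The counts of genes past 2-fold in the lists that follow stand against 8.63% of all genes for higher and 5.59% for lower. Glycolysis genes summed to 2832 and 2545 CPM, with 2 of 15 at least 2-fold higher: Eno1 had 107 and 46.1 CPM, and Ldhb 173 and 48.8 CPM, of which 1 barcode held 58.8% in the high-fat library. Fatty acid oxidation genes summed to 882 and 711 CPM (ratio 1.24, 1.05 to 1.46) with 1 of 10 higher, Acads. Lipid synthesis and storage genes summed to 946 and 738 CPM (ratio 1.28), with Dgat2, which makes triglycerides, at 109 and 54.3 CPM and the desaturase gene Scd2 at 61.0 and 16.3 CPM as the 2 of 11 that were higher. This lipid sum was also higher in the high-fat library over all other barcodes, at 769 and 548 CPM, but not in Kit/Stra8 barcodes, at 782 and 812 CPM. Cholesterol genes summed to 1154 and 985 CPM, with 1 of 13 higher (Insig1) and 1 lower (Abca1). Of 17 genes of insulin, leptin and mTOR signalling, Akt1 was higher, at 50.8 and 24.4 CPM. Of these 17, 3 were lower, Rptor and Rictor among them, and Rictor had 25.4 and 59.7 CPM (ratio 0.426, 0.180 to 0.937). Lepr, the leptin receptor gene, had 0 and 1 UMIs.

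Stress genes were mixed, with the same shares of all genes past 2-fold to be set beside them. Hsp90ab1 had 1708 and 1308 CPM and Hsp90aa1 1215 and 844 CPM, and heat shock genes summed to 5595 and 4705 CPM (ratio 1.19, 1.12 to 1.27). Sesn2, a stress-induced inhibitor of mTOR, had 68.6 and 21.7 CPM (ratio 3.16, 1.40 to 8.05), while the pro-apoptotic gene Bax had 201 and 174 CPM. Antioxidant genes summed to 3676 and 3745 CPM, with Gstm1 the 1 of 18 at least 2-fold higher. Immediate early genes summed to 623 and 564 CPM. There Jund was higher, at 183 and 78.7 CPM, and Fos was lower, at 17.8 and 46.1 CPM, of which 1 barcode held 76.5% in the comparison library, and without members rich in somatic markers the sums were 586 and 323 CPM (ratio 1.81, 1.43 to 2.31).

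The same comparison was made over chromatin and germ line genes. Its counts past 2-fold stand against 14.2% of all genes in either direction, 8.63% higher and 5.59% lower. None of 18 genes of DNA methylation and chromatin and none of 10 piRNA genes was 2-fold apart. Germ identity genes summed to 1706 and 2149 CPM (ratio 0.794, 0.715 to 0.881), with Dazl, an RNA-binding protein of germ cells, at 308 and 434 CPM and Tex101, a germ cell surface protein, at 145 and 296 CPM. Retinoic acid genes summed to 379 and 369 CPM (ratio 1.03, 0.808 to 1.30). Of 10 germ identity genes tested, 1 was at least 2-fold lower, as was 1 of 6 retinoic acid genes, and none was 2-fold higher. Genes of the cell surface and of adhesion summed to 313 and 261 CPM, and none of 4 tested was 2-fold apart.

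By size and spread, 69 genes stood out as higher and 35 as lower in members of the high-fat library (the rule is given below), and the extremes included several that were also apart in other cells. Of the genes at least 2-fold higher in members, 91 (15.3%) were also 2-fold higher over all other barcodes, and of those lower, 70 (18.1%). Of all 6904 genes tested, 192 were 2-fold higher and 140 were 2-fold lower over the other barcodes. Dynlt1f, a dynein light chain gene, had 91.5 and 2.71 CPM in members but 214 and 2.64 CPM in all other barcodes. Map4k1, a kinase, had 163 and 38.0 CPM in members and 424 and 93.4 CPM in other barcodes. Lsm10 had 50.8 and 250 CPM in members and 43.3 and 915 CPM in other barcodes, and Pccb, of propionate breakdown, 12.7 and 73.3 CPM in members and 11.2 and 51.0 CPM in others. Further genes drew much of their UMIs from 1 barcode: Defb19, Pacsin1, Hspb1, Tuba1a, Bcar3 and Espn drew 49.7%, 64.3%, 53.8%, 67.3%, 87.9% and 48.8% of their UMIs in the high-fat library from it, and in the comparison library Ak9 and Dis3l drew 76.6% and 66.2%. Without the barcode with most UMIs in each library the log2 ratio was -0.097 for Bcar3, 0.52 for Espn, -0.69 for Ak9 and -0.74 for Dis3l, each under 2-fold. It was 2.43 for Defb19, 1.55 for Pacsin1, 2.54 for Hspb1 and 1.22 for Tuba1a. Defb19 was found in 11 members of the high-fat library and 11 of the comparison library. Sertoli markers kept 148 and 34 UMIs in members without the barcode with most of them, and their part in these differences was not tested.

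A smaller set was spread over many members and stood apart from the other barcodes. Arhgef1, which activates the GTPase RhoA, had 71.2 CPM in 21 members of the high-fat library and 16.3 CPM in 6 members of the comparison library, with a log2 ratio of 2.13 against 0.57 over other barcodes. Tle1, a transcriptional co-repressor, had the same 71.2 and 16.3 CPM, in 18 and 6 members. Lap3, an aminopeptidase, had 68.6 and 19.0 CPM in 21 and 6 members (log2 ratio 1.85 against -0.57 over others).

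Lower in the high-fat library were Sdk2, a cell adhesion gene, with 22.9 CPM in 9 members against 144 CPM in 26 members of the comparison library, a log2 ratio of -2.65 against 0.26 over other barcodes. Rin2, a regulator of endocytosis, had 12.7 and 81.4 CPM in 5 and 19 members, and over other barcodes it was higher in the high-fat library, with a log2 ratio of 1.70. Lbhd2 had 12.7 and 76.0 CPM in 5 and 16 members, 26.1-fold and 166-fold above the other barcodes of each library. Pcbp4, an RNA-binding protein, had 7 and 35 UMIs in 7 and 21 members. Fam163a had no UMI in the high-fat library and 32 UMIs in 11 members of the comparison library, a log2 ratio of -3.51 or lower at the same floor of 3 counts. Acaa2, the last enzyme of mitochondrial fatty acid oxidation, had 38.1 and 117 CPM (log2 ratio -1.61 against 1.04 over others), and the zinc finger gene Bnc2, required for male germ cell development in mice, 30.5 and 114 CPM.

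**Figure D5:**
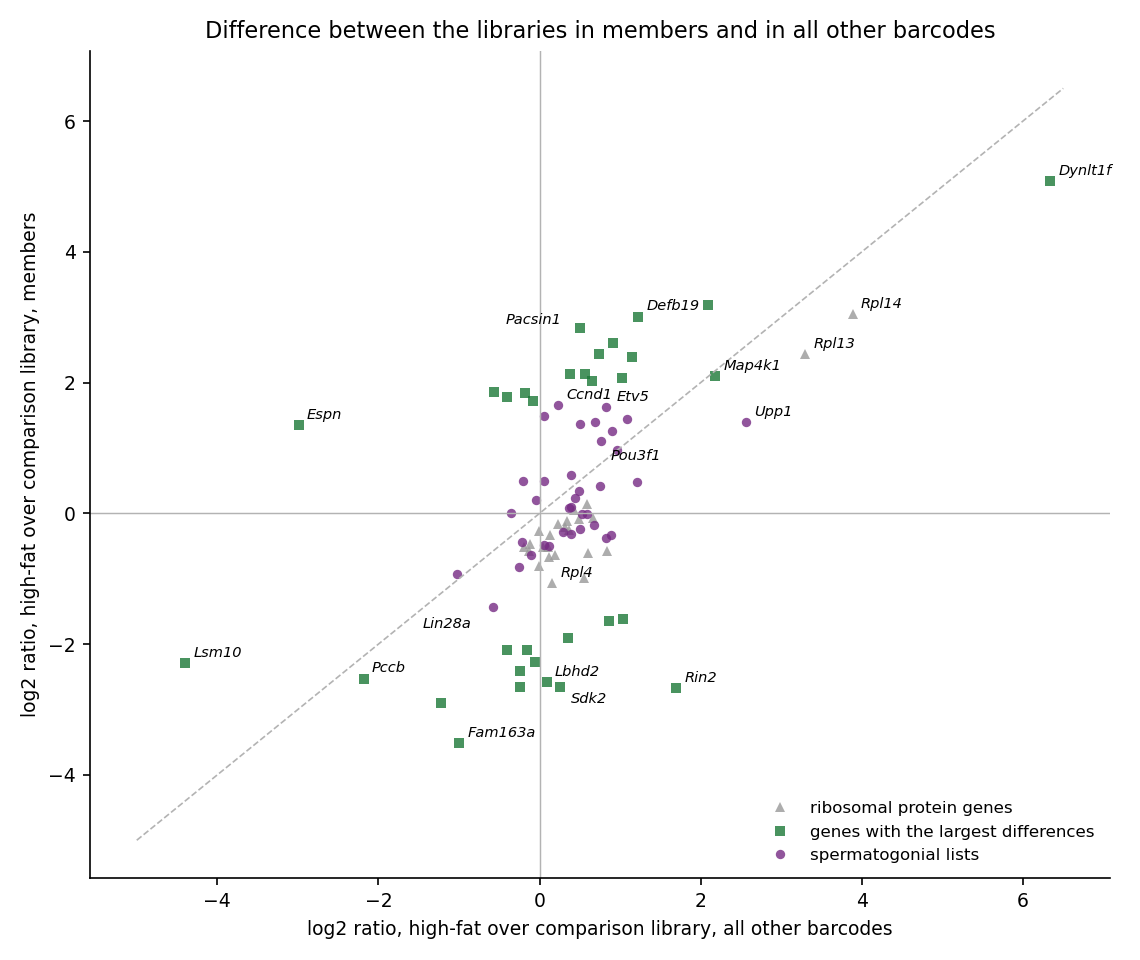
Log2 ratio of the high-fat over the comparison library in members (y axis) against the same ratio over all other barcodes (x axis); squares are the genes with the largest differences, circles the spermatogonial lists and triangles ribosomal protein genes, with the dashed line at equal ratios. Dynlt1f, Map4k1, Pccb, Rpl13 and Rpl14 lie near the dashed line or beyond it, Rin2 and Espn lie on opposite sides of 0 on the 2 axes, and Lin28a lies at -1.44 in members.

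Markers of other cells were present in members and differed between the libraries. Spermatid markers stood at 2006 and 1142 CPM in members (ratio 1.76, 1.56 to 1.98), against 7103 and 4777 CPM in all other barcodes and 11732 and 7916 CPM in round spermatids. Their level in members was 28.3% and 23.9% of that over the whole library. Pachytene markers stood at 6772 and 6420 CPM in members. Sertoli markers summed to 1037 and 168 CPM, but 13 and 11 members held them and 1 barcode gave 63.7% and 45.2% of the UMIs. Without the 8 and 11 members rich in somatic markers they stood at 22.7 and 14.7 CPM. Myoid markers had 13 and 43 UMIs, of which 4 and 5 remained without the barcode with most of them, and Schwann markers had 11 and 15 UMIs, of which 5 and 12 remained. Leydig markers had 0 and 1 UMIs, immune markers 2 and 1, endothelial markers 11 and 10 and stroma markers 5 and 13. The part of spermatid transcripts in the differences between the libraries was not tested beyond the subtraction reported below.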

How the data were processed

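Single-cell RNA sequencing libraries of testis tissue were used as deposited. The authors deposited whole-number counts of UMIs per gene and barcode, written by PISA 1.0 per the file headers, and Cell Ranger 2.1.1 is named per the submitters' processing notes. Neither aligner, genome build nor annotation is given in the sources used here. No barcode was removed. Counts were summed over members of each library, 74 and 71 barcodes, and scaled to CPM. Intervals (95%) are Poisson (levels), conditional binomial (ratios), both exact, Clopper-Pearson (shares) and Newcombe (share differences). Genes with 20 or more summed counts entered the comparison, and a gene was called at 2-fold. The ratio intervals were tested on simulated Poisson sums only, which leave out the uneven spread of UMIs between barcodes.

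The members, the 39 gene lists and the comparison groups were chosen with earlier results of these data known. Named genes were every detected rule, stem cell, progenitor and differentiation gene, the 12 highest and lowest ratios with 30 or more counts in 10 or more members of the higher library and an interval beyond 1.5-fold, the 8 highest and lowest differences from other barcodes, the 30 genes most above other barcodes, and up to 4 genes of each other list. List genes past 2-fold and Lepr were named after their values were seen. Round spermatids needed 10 or more UMIs and 20 or more per 10000 of their markers, Sertoli barcodes 3 or more and 20 or more per 10000. Members rich in somatic markers had 5 or more per 10000. Likely doublets were the 6% of barcodes with the highest Scrublet scores (scanpy 1.11.5), since the automatic threshold called 0 and 652, a choice made after seeing the data, as were the Kit/Stra8 group and the sub-groups and marker lists without members rich in somatic markers or without the barcodes with most UMIs. Promoters came from RefSeq (GRCm38.p6). Python 3.11.15, numpy 2.4.6, scipy 1.17.1, pandas 2.3.3 and matplotlib 3.10.9 were used. Some genes that the rule names are not reported here.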

Additional observations from a re-analysis of the deposited data

How the results depend on the processing

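No paired analysis was possible because each group had 1 library, and no replicate could be left out. Over 13 settings, 1190 of 1321 values moved by less than their counting interval or their allowed range, 116 moved by more and 15 changed sign, and leaving out likely doublets moved none of 103. That setting left out only 1 of 74 members in the high-fat library and 2 of 71 in the comparison library, so little could move. Without the germ gene the difference in the share of members was 0.443 points in place of 0.0702. Genes at least 2-fold higher in the high-fat library numbered 136 at 10 or more marker UMIs per 10000, 85 thinned to 1000 UMIs, 903 with the library profile subtracted as free RNA, 147 at 50 or more counts and 1207 at 10 or more, in place of 596, and lower ones 91, 73, 747, 85 and 862, in place of 386. Genes at least 2-fold higher in members than in other barcodes numbered 486 at 10 per 10000, 1133 at 50 counts and 4218 at 10 counts, in place of 2780. Stricter members and thinning leave fewer counts, so fewer genes are tested. The median log2 ratio of differentiation genes was -0.46 at 10 per 10000, in place of 0.50.

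Log2 ratios changed sign at 10 per 10000 for Hspb1 (-1.17), Pax7 (-0.77), Rhox13 (-0.58), Tmsb4x (-2.17), Defb19 (-3.46) and Espn (-1.17), and thinned to 1000 UMIs for Hspb1 (-0.060), Etv5 (-0.060), Meioc (-0.64) and Tuba1a (-0.38). Bcar3 had -1.90 at 3 or more marker UMIs and -0.10 without its top barcode, Espn -0.41 without members rich in somatic markers and -0.025 with barcodes weighted equally, and Lsm10 0.41 with free RNA subtracted. The cause was not tested. With 1 library per group and these depths, genes under 20 summed counts were not compared.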
